A study of Mus musculus with 8 samples.

Results

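The genes described are 10 inhibitors of T cell receptor (TCR) signalling: the surface glycoprotein genes Cd5 and Cd6, the tyrosine phosphatase genes Ptpn22, Ptpn6, Ptpn11 and Ptpn2, the ubiquitin ligase gene Cblb, the diacylglycerol kinase genes Dgka and Dgkz, and the adaptor gene Sla2. They were chosen by gene symbol, and a probe set counted only where the array annotation gave that symbol alone. On this rule 9 of the 10 had a probe set, and Cblb was not analysed here. The 9 genes had 16 probe sets out of 20380 that name 1 gene. All 9 passed the filter on low values, among 8003 genes tested of 12393 on the array.

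The TCR signal starts with the kinases Lck and Zap70, which phosphorylate tyrosines on the receptor chains and on adaptors such as Lat, and then passes through calcium and diacylglycerol. The genes described here act against it at successive steps: as surface receptors that recruit inhibitors, as phosphatases that remove the phosphates, as kinases that remove diacylglycerol, and as adaptors that lead the receptor to degradation. SHP-1 and SHP-2, the products of Ptpn6 and Ptpn11, carry SH2 domains, and SHP-2 in particular binds the tail of the inhibitory receptor PD-1 once its ligand PD-L1 is engaged.

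RNA came from activated CD8 cytotoxic T cells of OT-1 mice, whose T cells share 1 transgenic receptor for an ovalbumin (OVA) peptide. The T cells of each of 4 animals (mice A, B, C, D) were split between ID8 mouse ovarian cancer cells that overexpress PD-L1 and ID8 cells depleted of it. Both kinds of target were loaded with the OVA peptide, contact lasted 4 h at 30 T cells per target, and T cells were then recovered with magnets. This gave 8 arrays, 4 per kind of target, and no array of T cells without targets is among them. The labels do not give how PD-L1 was changed, nor the age or sex of the animals. Levels are on the deposited log2 scale, and a positive difference between targets means the higher level with PD-L1-overexpressing targets. The number of arrays limits the precision.

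The arrays held the marker genes of CD8 T cells at high values: all 10 listed markers passed the filter, from Cd247 with a mean of 10.48 to Gzmb with 14.63. Of 19 markers of ID8 cells on the array, 10 passed the filter, and the mean of these 10 ran in opposite directions among the mice. For mice A, C and D its values were 8.332, 8.767 and 8.677 beside overexpressing targets, above 7.617, 8.184 and 8.025 beside depleted ones. Mouse B had the opposite order, 7.600 and 8.614, and whether its 2 arrays carry each other's label cannot be told from the labels. The labels were kept as given, and differences between targets are given with and without this animal. The widest marker was Upk3b, at 9.28, 7.51, 9.95 and 9.78 for mice A to D with overexpressing targets and 7.61, 9.79, 8.07 and 7.96 with depleted ones. Of 13 B cell markers 9 lay under the filter value of 6.872, as did all 5 neutrophil markers, 3 of 4 NK cell markers, 3 of 4 erythroid and platelet markers, 3 of 5 CD4 and regulatory T cell markers and 7 of 12 macrophage and dendritic cell markers.

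The first comparison asked whether the inhibitor genes differed after contact with targets rich or poor in PD-L1. None did beyond the spread between co-cultures. With mouse and target as terms, limma called 0 of 9 members and 0% of all 8003 genes, and at an unadjusted p under 0.05 it held 0 of 9 members beside 2.85% of all genes. Of the 9 genes 5 were higher and 4 lower in the mean, with a median difference of 0.0035 (0.0033 over all genes tested). The 95% intervals of the 9 differences lay between -0.123 and 0.136, and their standard errors between 0.0248 and 0.0526.

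Ptpn11, which encodes SHP-2, was the one member with the same direction in all 4 mice, where 10.5% of all genes tested had this. This rests on the labels of mouse B as given: were its 2 arrays exchanged, Ptpn11 would have mixed directions. Cd6 and Sla2 would then be the members with a single one, and the share of all genes with a single direction in that case was not counted. With PD-L1-overexpressing targets Ptpn11 read 10.02, 9.83, 9.86 and 9.87 for mice A to D. With PD-L1-depleted targets it read 9.93, 9.78, 9.81 and 9.80 in the same order. The overexpressing array was thus the higher in each animal, but the groups overlapped, since the depleted array of mouse A lay above the overexpressing arrays of the other mice. The difference was 0.062 (SE 0.033, 95% interval -0.013 to 0.136) and did not pass (limma adjusted p = 0.9995). It was 0.067 (SE 0.039) without mouse B, with a limma adjusted p of 0.526. The other Ptpn11 probe sets, with means of 6.69 and 6.53, lay under the filter and differed by 0.043 and -0.14, and the mean of all 3 turned the direction of Ptpn11 to -0.012 (limma adjusted p = 0.9996).

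Ptpn6, which encodes SHP-1, read 11.94, 11.92, 11.97 and 11.86 in mice A to D with PD-L1-overexpressing targets and 11.85, 11.90, 11.97 and 11.86 with PD-L1-depleted targets. The arrays of both groups overlapped. The difference was 0.024 (SE 0.026, 95% interval -0.035 to 0.082), most of it from mouse A (0.088). A second Ptpn6 probe set differed by -0.0098 (SE 0.029). Without mouse B the first probe set differed by 0.027 (SE 0.029).

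The other members were as close. Cd5, a scavenger receptor family protein that dampens TCR signalling, differed by 0.022 (SE 0.033), and its relative Cd6 by 0.011 (SE 0.032). Mouse B gave the largest difference of both (0.10 and 0.082), and without that mouse the means were -0.0041 (SE 0.033) and -0.012 (SE 0.034). Ptpn22, which dephosphorylates Lck and Zap70, differed by 0.0035 (SE 0.025), and Ptpn2, which also acts on JAK and STAT proteins, by -0.030 (SE 0.034). Without mouse B these were 0.0016 (SE 0.030) and -0.045 (SE 0.036).

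Dgka and Dgkz convert diacylglycerol to phosphatidic acid and so limit Ras activation. Dgka differed by -0.042 (SE 0.032) and Dgkz by -0.0049 (SE 0.030), and without mouse B they differed by -0.038 (SE 0.034) and -0.024 (SE 0.029). Mouse C gave the largest Dgka difference (-0.142), and without mouse C Dgka differed by -0.0081. Sla2, an adaptor that works with Cbl ligases to lower receptor levels, differed by -0.0041 (SE 0.053). Its values in single animals were 0.18 for mouse B, and -0.13, -0.061 and -0.0012 for mice A, C and D. Without mouse B Sla2 differed by -0.065 (SE 0.045). Cd6 differed by -0.013, 0.082, -0.020 and -0.0023 in mice A to D. The signs of Cd6 and Sla2 are the reverse of those of the ID8 marker mean in each animal. In mouse D this rests on -0.0023 and -0.0012, small beside the SEs of the mean differences (0.032 and 0.053). Cd6 and Sla2 were picked for this after values were seen, and the share of all genes with such signs was not counted. That mean differed by 0.715, -1.01, 0.583 and 0.652 in mice A to D. The part of ID8 RNA in Cd6 and Sla2 was not tested. Leaving out mouse B gave 0 of 9 members called, beside 2.2% of all genes, and the lowest limma adjusted p among the members was then 0.526, that of Ptpn11.

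**Figure D1:**
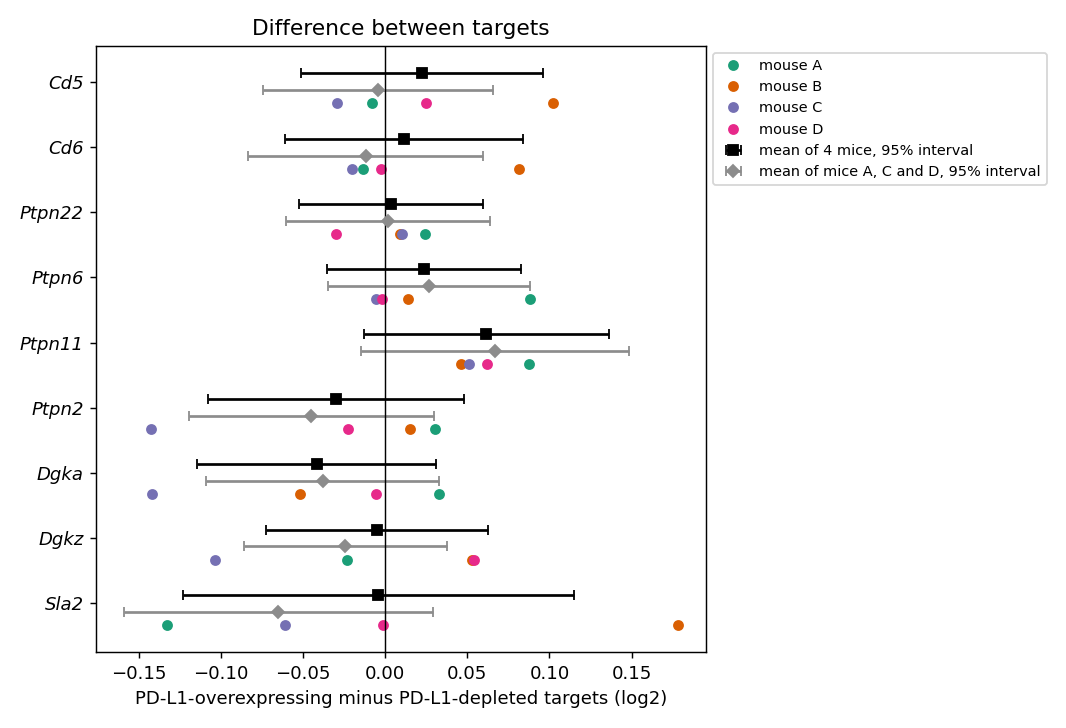
Difference between targets for each inhibitor gene, in log2 units. Squares are the mean of 4 mice and diamonds that of mice A, C and D, with 95% intervals; dots are single mice. Every interval crosses 0, and the dots lie on 1 side of it only for Ptpn11.

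Among other genes of the pathway, leaving out mouse B changed calls only in the list of other inhibitors. With all 4 mice, of 20 tested genes of proximal TCR signalling 11 were higher and 9 lower (median 0.0095), of 25 other inhibitors of TCR signalling 11 and 14 (median -0.011), and of 8 reporters of TCR signalling 2 and 6 (median -0.045). In each list 0 genes passed with all 4 mice. Those with the smallest p were Vav1 (0.088, SE 0.050), Prkcq (0.045, SE 0.032) and Fyb (-0.039, SE 0.029) among the proximal genes. Among other inhibitors they were the MAP kinase pathway inhibitor Spry1 (-0.084, SE 0.042), the ubiquitin ligase Itch (0.064, SE 0.038) and the Ras GTPase activator Rasal3 (0.053, SE 0.035). Among reporters they were Nr4a1 (-0.068, SE 0.027), Nr4a3 (-0.087, SE 0.045) and Egr1 (-0.055, SE 0.039). Pdcd1, which encodes PD-1, differed by 0.032 (SE 0.044), Cd274, which encodes PD-L1, by -0.042 (SE 0.041) and Pdcd1lg2, which encodes the other PD-1 ligand, by 0.048 (SE 0.048). The limma adjusted p was 0.9995 for each of these.

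Without mouse B, 0 of the 20 proximal genes, 0 of the 8 reporters and 0 of the 3 genes of PD-1 and its ligands passed, and 3 of the 25 other inhibitors were higher with PD-L1-overexpressing targets, where 1.9% of all genes were higher and 0.3% lower. The 3 were Nedd4, Rnf128 and Tob1, named here because they are all that passed. Rnf128, which encodes the ubiquitin ligase GRAIL, read 8.82, 9.54 and 9.34 in mice A, C and D with overexpressing targets and 7.78, 8.69 and 8.81 with depleted ones. In mouse B it read 8.40 and 9.35, the opposite order. The Rnf128 difference was 0.805 without mouse B (SE 0.068, limma adjusted p = 1.49e-07) and 0.366 with all mice (SE 0.263, adjusted p = 0.9995). Nedd4, another ubiquitin ligase gene, differed by 0.168 without mouse B (SE 0.039, adjusted p = 0.0224), and Tob1, an antiproliferative gene, by 0.230 (SE 0.049, adjusted p = 0.0129). In the same comparison 7 of 10 tested ID8 markers were called higher, and their median difference was 0.649. In each of the 4 mice the higher array of Nedd4, Rnf128 and Tob1 was the one with the higher ID8 marker mean. For mice A, C and D this was largely set by the choice of the genes, which were called higher in those animals. Only mouse B was free of that choice. The share of all genes with such an order was not counted, and the part of ID8 RNA in Nedd4, Rnf128 and Tob1 was not tested.

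The genes named for the smallest p between targets with all mice, and Pdcd1, Cd274 and Pdcd1lg2, did not pass without mouse B either. Vav1 differed by 0.144 (SE 0.046, limma adjusted p = 0.152), Prkcq by 0.021 (SE 0.034) and Fyb by -0.031 (SE 0.034). Spry1 differed by -0.106 (SE 0.042), Itch by 0.085 (SE 0.043) and Rasal3 by 0.038 (SE 0.039). The reporters Nr4a1, Nr4a3 and Egr1 differed by -0.066 (SE 0.028), -0.073 (SE 0.050) and -0.051 (SE 0.039). Pdcd1 differed by -0.021 (SE 0.037), Cd274 differed by -0.033 (SE 0.044) and Pdcd1lg2 by 0.0067 (SE 0.045). The median of the proximal genes was then -0.0020, that of the other inhibitors -0.018 and that of the reporters -0.054, beside -0.0057 over all genes.

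The animals differed far more than the targets. By limma's moderated F test 5 of 9 members differed between mice, Cd5, Cd6, Dgka, Ptpn22 and Sla2, where 29.3% of all genes passed. Ptpn11, Dgkz, Ptpn6 and Ptpn2 did not. Mouse accounted for 99.4% of the variance of Cd5 and of Cd6, 99.0% of that of Ptpn22 and 95.1% of that of Dgka, beside a median of 73.8% over all genes tested. It accounted for 50.2% of the variance of Ptpn2. Because 1 animal supplied the T cells for both of its arrays, these p-values set animals against the spread between co-cultures. In such bulk samples fewer cells that express a gene and less RNA per cell cannot be told apart.

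**Figure D2:**
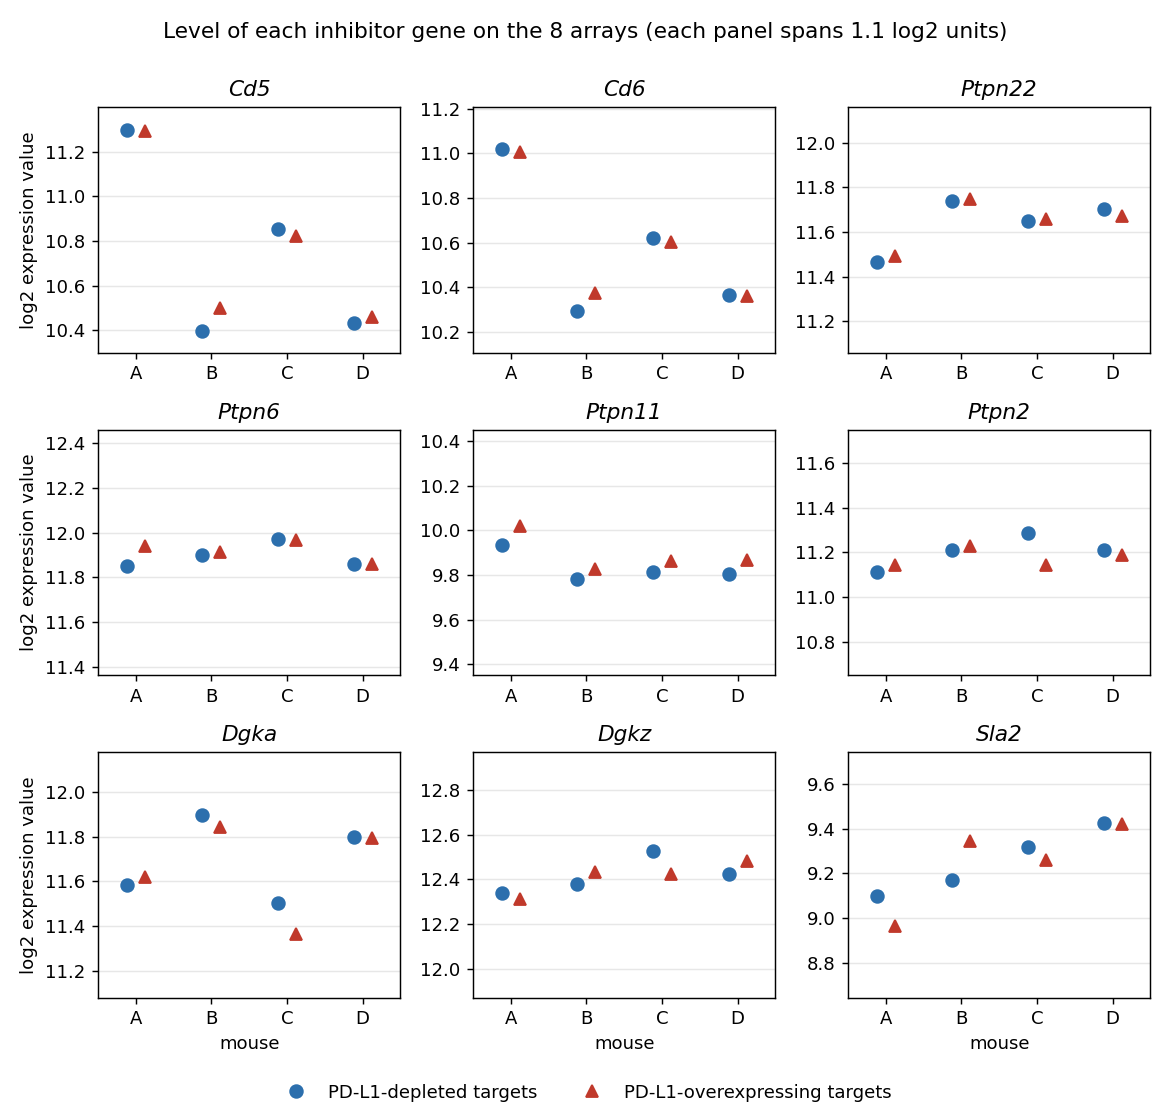
Log2 expression value of the 9 inhibitor genes by mouse, with PD-L1-depleted (circles) and PD-L1-overexpressing (triangles) targets; each point is 1 array, and each panel spans 1.1 log2 units. Cd5 and Cd6 are highest in mouse A, intermediate in C and lowest in B and D, and the points of each mouse lie close together.

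Cd5 and Cd6 had the largest ranges between mice. Cd5 read 11.29 and 11.30 in mouse A, 10.82 and 10.85 in C, 10.50 and 10.40 in B and 10.46 and 10.43 in D, with overexpressing targets given first. Mouse A stood highest and mouse C between it and mice B and D, whose arrays overlapped. The mean of mouse A was 1.80-fold that of mouse D, a range of 0.849 on the log2 scale that 98.6% of the genes tested did not exceed (limma F test adjusted p = 6.92e-06). Against the mean of the other mice, Cd5 was 0.717 higher in A (SE 0.038, adjusted p = 2.19e-06), at -0.410 in B and -0.415 in D it was lower, and it differed by 0.108 in C (adjusted p = 0.113). In Cd5 mice B and D did not differ beyond the test (0.0037, adjusted p = 0.972). Mouse A was 0.456 above C, and C was 0.392 above D.

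Cd6 read 11.00 and 11.02 in mouse A, 10.60 and 10.62 in C, 10.38 and 10.29 in B and 10.36 and 10.36 in D, again with A highest and C between it and the others. Its highest mouse was 1.60-fold its lowest (F test adjusted p = 2.99e-05). It was 0.575 higher in A than in the mean of the others (SE 0.037), 0.327 lower in B and 0.289 lower in D, and it differed by 0.041 in C (adjusted p = 0.525). The genes lie next to each other on mouse chromosome 19 with no protein-coding gene between them in RefSeq. Without mouse A Cd5 and Cd6 still differed between mice (F test adjusted p = 0.00336 and 0.0198), as 3 of 9 members did beside 7.2% of all genes. Against the mean of the mice then left, C was higher in both (adjusted p = 0.00149 and 0.0105). The calls of Cd6 in B (adjusted p = 0.0750) and of Cd5 and Cd6 in D (0.0614 and 0.284) were lost.

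The sequence upstream of Cd5, the member with the widest range, is shown beside that of Sla2, which was lowest in mouse A, since these 2 members of those that passed have a single start in the RefSeq promoter table (build GRCm38.p6; 8 of the 10 genes have an entry, and Cd6 and Ptpn2 do not). Each run is 190 bases, 5′ to 3′ on the gene's minus strand, from the far end of the window and outside the annotated gene, at chr19:10739035-10739224 for Cd5 and chr2:156887282-156887471 for Sla2. Capitals mark GGAA, the core of sites for Ets family factors, on either strand.
Cd5: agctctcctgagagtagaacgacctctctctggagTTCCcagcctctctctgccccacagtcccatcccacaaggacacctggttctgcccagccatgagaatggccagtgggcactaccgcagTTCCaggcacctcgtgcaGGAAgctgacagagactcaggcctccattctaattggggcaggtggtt
Sla2: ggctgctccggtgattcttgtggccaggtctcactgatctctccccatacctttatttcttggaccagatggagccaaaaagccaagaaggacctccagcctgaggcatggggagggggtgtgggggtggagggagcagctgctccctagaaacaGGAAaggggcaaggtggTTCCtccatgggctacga

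Cd5 had 3 matches to GGAA in this window and Sla2 had 2; 87.9% of the 32851 windows of the same length in the table hold at least 1. The E box CANNTG, which reads alike on both strands, had 2 matches in each, where 57.3% of windows hold it. The Runx site TGTGGT had 0 on either strand in both, where 11% of windows hold it. Matches were counted for each motif separately and could share letters, and a match describes letters only.

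Dgka divided the animals differently. It read 11.84 and 11.90 in mouse B, 11.79 and 11.80 in D, 11.62 and 11.59 in A and 11.36 and 11.50 in C, with overexpressing targets first. The arrays of no mouse overlapped with those of another in Dgka and Ptpn22, 2 of 9 members, where 9% of all genes had this. Dgka was 0.261 higher in B than in the mean of the others (SE 0.037, adjusted p = 0.00318), 0.159 higher in D (adjusted p = 0.0305) and 0.322 lower in C (adjusted p = 0.00112). Mouse A did not pass at -0.098, though it did without mouse C (-0.231, adjusted p = 0.00260), and B and D did not differ from each other beyond the test (0.076, adjusted p = 0.372). The call in D was lost without mouse A (adjusted p = 0.114), without mouse C (0.278), without a trend (0.114) and with median centring (0.0558). Dgkz, the other kinase of this family, did not pass the F test (adjusted p = 0.0740), but did without mouse B (0.00424), with robust variances (0.0428) and with array weights (0.0323). It read 12.31 and 12.34 in mouse A and 12.38 to 12.53 in the others. It was 0.12 lower in A than in the mean of the others (SE 0.035, adjusted p = 0.0275), a call lost without mouse D (adjusted p = 0.0723), without a trend (0.099) and with the mean of its probe sets (0.0567). A second Dgkz probe set read 9.32 in mouse A and 9.33 in D in the mean, and 9.46 and 9.39 in B and C.

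Of the probe sets that stood for the phosphatases, that of Ptpn22 had the widest range between mice, 0.265. It read 11.49 and 11.47 in mouse A, 11.66 and 11.65 in C, 11.67 and 11.70 in D and 11.75 and 11.74 in B. Mouse A was the lowest, 0.216 under the mean of the others (SE 0.029, adjusted p = 0.000626). The 3 other mice did not pass the test between any pair of them (adjusted p from 0.140 to 0.715), and without mouse A the F test did not pass (adjusted p = 0.287). Mouse B, at 0.138 above the mean of the others (adjusted p = 0.0186), lost its call without mouse A (adjusted p = 0.197), with quantile normalisation (0.0540), without a trend (0.0773) and with array weights (0.0757). Without mouse B, mouse D was 0.122 above the others (adjusted p = 0.00811).

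Ptpn11 was 0.151 higher in mouse A than in the mean of the others (SE 0.038, adjusted p = 0.0157), with both arrays of A above all others. This call was lost without mouse D (adjusted p = 0.0546) and with the mean of its 3 probe sets (0.560). Its F test did not pass (adjusted p = 0.0617), but did without mouse B (0.0286), with median centring (0.0491), with the filter at the 60th percentile (0.0410), with robust variances (0.0480) and with array weights (0.0394). Ptpn6 and Ptpn2 showed ranges of only 0.110 and 0.093 between mice, and with all 4 mice these probe sets passed in no mouse against the others. Without mouse B, Ptpn6 was 0.091 higher in C (adjusted p = 0.0452), and its F test passed (0.0479). The Ptpn2 probe sets that passed the filter had ranges of 0.093, 0.121 and 0.320, and the widest, in the probe set with a mean of 8.03, was lowest in mouse A (7.85 against 8.02 to 8.17). For Ptpn2 the mean of its probe sets was 0.136 lower in mouse A (adjusted p = 0.0328).

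Sla2 read 8.96 and 9.10 in mouse A, 9.35 and 9.17 in B, 9.26 and 9.32 in C and 9.42 and 9.42 in D. It was 0.293 lower in A than in the mean of the others (SE 0.061, adjusted p = 0.00647) and 0.231 higher in D (adjusted p = 0.0487). Between pairs, A differed from C (adjusted p = 0.0328) and D (0.00507) but did not pass against B (0.0581). Its F test (adjusted p = 0.0186) did not pass without mouse A (0.293), without mouse D (0.0916) or without a trend (0.0507). The higher level in D was lost in the same fits without A (adjusted p = 0.308) and without a trend (0.103). It was also lost with median centring (0.0648), with no filter (0.0629) and with every probe set tested on its own (0.0668).

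By animal, 6 of 9 members passed in mouse A against the mean of the others (30.8% of all genes), 4 in B (9.26%), 1 in C (8.43%) and 4 in D (8.65%). Mouse A had 3 members higher, Cd5, Cd6 and Ptpn11, and 3 lower, Ptpn22, Dgkz and Sla2, beside 18.1% and 12.7% of all genes. Mouse B had 2 higher and 2 lower, beside 6.3% and 2.96%. Mouse C had 0 higher and 1 lower, beside 3.09% and 5.35%, and mouse D had 2 higher and 2 lower, beside 4.56% and 4.09%. The members thus went both ways in A, B and D, and the median of the 9 was -0.084 in A, beside 0.022 over all genes. In 7 of 9 members both arrays of mouse A lay at one end, 3 above all other arrays (22.3% of all genes) and 4 below them (13.9%). Between pairs of animals, 5 of 9 members passed for A and B (21.6% of all genes), 6 for A and C (25.2%) and 5 for A and D (25.5%). Away from mouse A, Cd5, Cd6 and Dgka passed between B and C (3 members, 8.33% of all genes) and between C and D (3 members, 3.22%), and 0 members passed between B and D (3.95%). Without mouse B the F test passed for 8 of 9 members, all but Ptpn2, beside 44.4% of all genes.

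**Figure D3:**
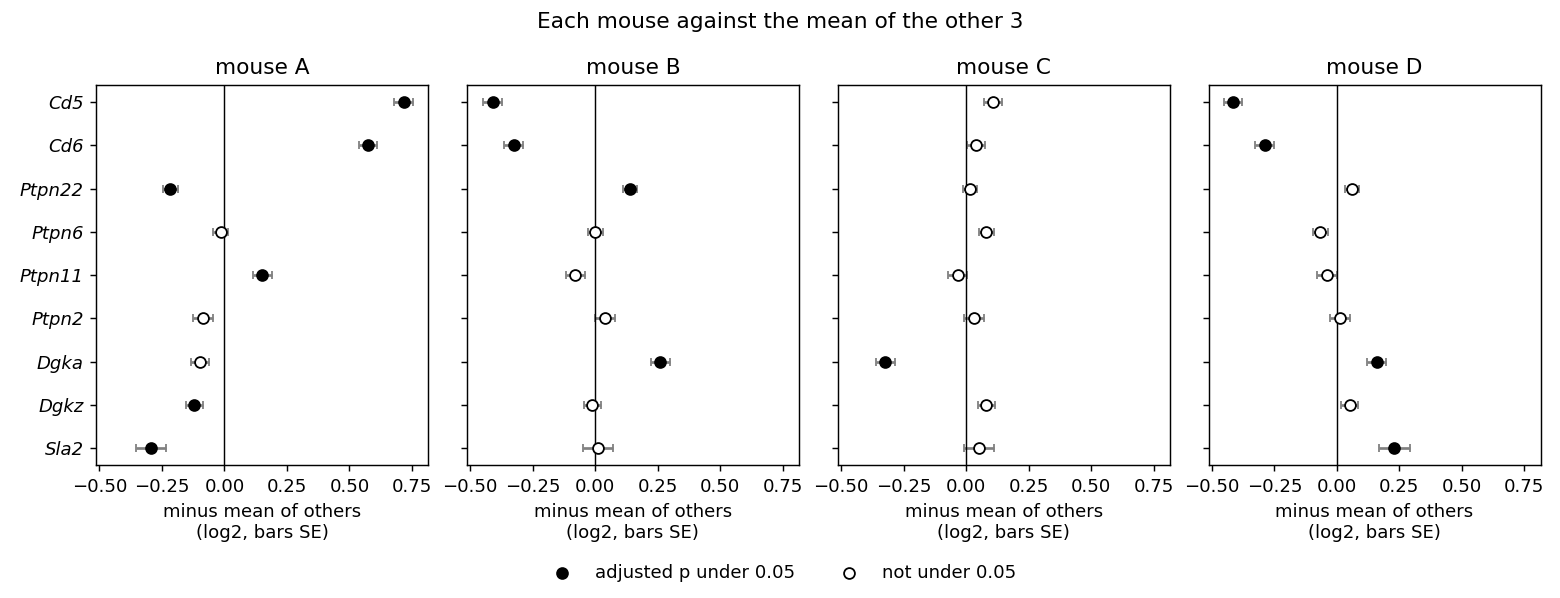
Each mouse minus the mean of the other 3 for the 9 genes, in log2 units, with standard errors; filled points passed limma's test at an adjusted p under 0.05. Cd5 and Cd6 lie far to the right in mouse A (0.717 and 0.575) and to the left in B and D.

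Markers of other cells moved with the animals too. The mean of the 4 B cell markers that passed the filter, Ighm, Cd74, H2-Aa and H2-Ab1, was 10.02, 11.35, 10.19 and 10.92 for mice A to D with overexpressing targets and 10.05, 11.29, 10.28 and 10.96 with depleted ones. This mean was lowest in mouse A and highest in B, and H2-Aa, from 6.77 to 10.21, had the widest range in it. In mouse A both arrays of H2-Aa lay under the filter value of 6.872, which its mean over all arrays (8.28) passed. Cd74 alone was lowest in C, at 11.96 and 11.99, and read 12.40 and 12.43 in A. The mean over all 13 B cell markers on the array ran from 7.127 to 7.597, and Ms4a1, Cd79a, Cd79b and Pax5 averaged 6.20, 6.62, 6.34 and 5.56, all under the filter. Of 5 macrophage and dendritic cell markers above the filter, 3 passed the F test and 2 were higher and 1 lower in mouse A. Batf3, listed here as a dendritic cell marker, read 12.10 and 12.12 in A and 11.70 to 11.78 in the others. That is the direction of Cd5 and Cd6 in mouse A, but the list did not share it. Cd68 was lowest in A, at 7.51 on both arrays. Ctss read 11.95 and 11.81 in A and 11.92 and 11.94 in B, where Cd5 and Cd6 were low. Itgax, Itgam, Adgre1 and Lyz2 lay under the filter. Of the 10 CD8 T cell markers 8 passed the F test, and in mouse A 1 was higher and 6 lower. The widest was Prf1, which encodes perforin, from 11.77 to 12.55 and highest in C. The part of these cells in the differences between mice was not tested.

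The genes nearest in pattern to the 3 members with the largest ranges were found by the mean absolute difference of centred log2 values over the 8 arrays, which share 4 animals. Nearest to Cd5 were Nupr1, a stress-induced chromatin protein (0.045), and Twsg1, a regulator of bone morphogenetic protein signalling (0.064), with Cd6 at rank 3 (0.079). Nearest to Cd6 were Abcd3, a peroxisomal transporter (0.024), and Plaur, the urokinase receptor (0.043). Nearest to Dgka were Tap2, a subunit of the peptide transporter of antigen processing (0.042), and Yap1, a transcriptional coactivator (0.046).

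**Figure D4:**
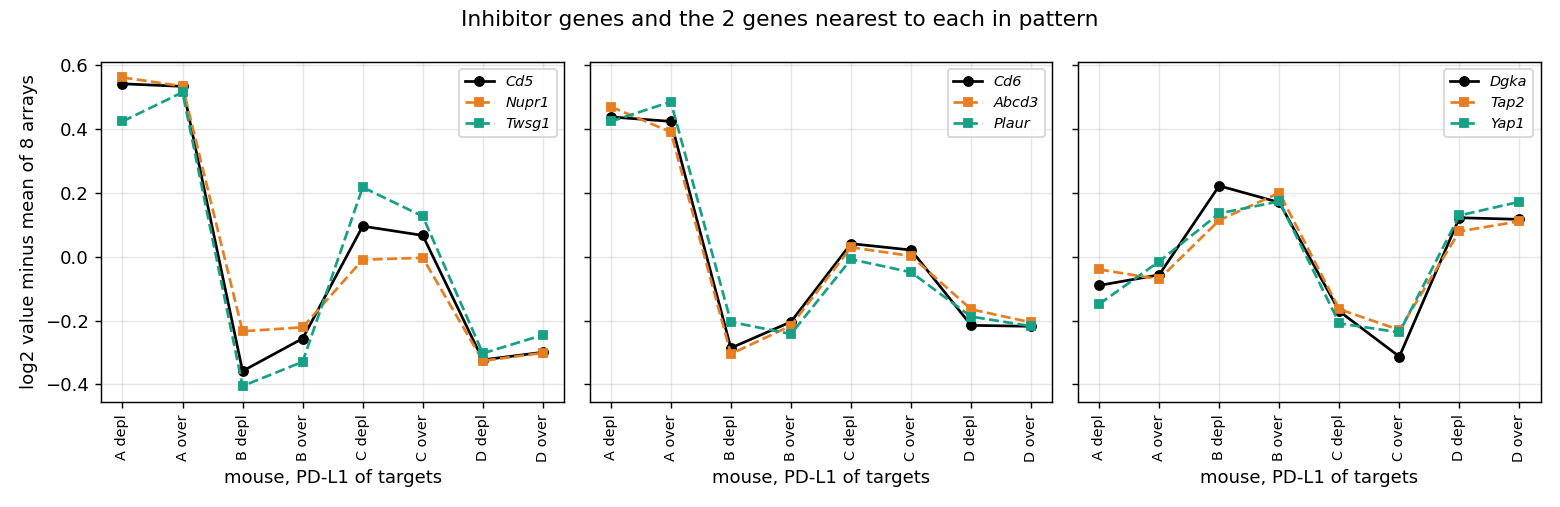
Log2 value minus the mean of the 8 arrays for Cd5, Cd6 and Dgka (black) and the 2 genes nearest to each; each point is 1 array, ordered by mouse, and depl and over name the PD-L1 of the targets. Nupr1 and Abcd3 are highest in mouse A, as Cd5 and Cd6 are, and Tap2 and Yap1 are lowest in C, as Dgka is.

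Other genes of the pathway also differed between mice. The F test passed for 8 of 20 tested genes of proximal TCR signalling, 13 of 25 other inhibitors, 6 of 8 reporters and 3 of 3 genes of PD-1 and its ligands, where 29.3% of all genes passed. In mouse A the proximal genes had 1 higher and 5 lower, and the other inhibitors 7 higher and 6 lower, where 18.1% of all genes were higher and 12.7% lower. The adaptor gene Lat was 0.247 higher in mouse A than in the mean of the others (SE 0.028, adjusted p = 0.000239) and lower in B (-0.135) and D (-0.156), the direction of Cd5 and Cd6 in these animals. The kinase gene Txk went the other way, 0.635 lower in A (SE 0.066), and so did the adaptor gene Fyb, at 10.79 to 10.80 in A and 11.12 to 11.18 in B.

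Among other inhibitors the smallest p between mice belonged to Spry1, Tnfaip3 and Socs3. Spry1 was 0.283 higher in mouse A and 0.340 lower in D. Tnfaip3, a brake on NF-kB signalling, was 0.226 higher in B and 0.185 lower in D. Socs3, a brake on cytokine receptor signalling, was 0.701 higher in B (SE 0.091) and 0.496 lower in A. The 3 with the smallest p among the reporters were Nr4a2, 0.274 higher in C, Egr1, 0.359 higher in B, and Irf4, 0.302 higher in A. On these arrays of recovered T cells Pdcd1 and Cd274 did not share an order between mice. Pdcd1 was 0.400 higher in mouse C than in the others (adjusted p = 0.00189), while Cd274 was 0.543 higher in A and 0.370 lower in C. The PD-L1 that differs by design is that of the ID8 targets.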

How the data were processed

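RNA of 8 samples was hybridised to mouse expression arrays that read the 3' ends of transcripts, each sample to its own array. The authors deposited 1 log2 expression value per probe set; that scale was read from the values (3.60 to 15.24), and how they were summarised and normalised is not given in the sources used here. Compared at equal rank, arrays differed by at most 0.167, so these values cannot show a shift common to most genes. Control probe sets (64) were left out. The probe set with the highest mean stood for a gene, and a gene was tested only if that mean reached 6.872, the 40th percentile of probe sets.

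Genes were fitted with limma 3.58.1 in R 4.3.3 (lmFit, eBayes with a trend), with mouse and kind of target as terms, two-sided, with Benjamini-Hochberg adjustment over all 8003 genes within each comparison and a threshold of 0.05. The same-animal pairing comes from the design text and titles. Over genes, both arrays of mice A, C and D deviated together from their group means (correlations of 0.824, 0.610 and 0.635). For mouse B the correlation was only 0.159. The steps were tested on simulated data. Alternatives were other normalisations, filters, probe set rules, variance models, weights, blocks and thresholds, and leaving out each mouse. The members, lists and tests were chosen with earlier results of these data known. Genes outside the 10 were named by rule: the genes of PD-1 and its ligands, the 3 with the smallest p per pathway list and comparison, the nearest in pattern, and markers. Markers named in the text beyond this rule were picked after values were seen (Ms4a1, Cd79a, Cd79b, Pax5, Prf1, Cd68, Ctss, Itgax, Itgam, Adgre1 and Lyz2). Nedd4, Rnf128 and Tob1 were picked in the same way. The table held 0 columns of other samples.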

Additional observations from a re-analysis of the deposited data

Results flagged for a closer look

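The spacing of the 4 arrays within each kind of target was examined for the 9 inhibitor genes and the pathway genes named above, as the distance of the outermost array from the next one over the whole spread. Of 54 such groups 2 had an array standing apart. For independent groups of genes not chosen by their values, 1 in 20, or 2.7, would do so by chance. Here both groups of a gene share animals, and some genes, Txk among them, were chosen for a small p between mice. The figure of 2.7 is thus only a guide. Neither of the groups with an array standing apart belonged to an inhibitor gene. With PD-L1-overexpressing targets, Pdcd1 stood apart as the highest in mouse C (0.898) and Txk as the lowest in mouse A (0.858).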

How the results depend on the processing

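Without the pairing by mouse as a block, limma called 0 members and 0 genes between targets, as it did with it. No result changed sign among those called. At a threshold of 0.01, 1093 genes differed between mice. In mouse D, 2 members were called at that threshold, with median centring and without a trend, beside 4 in the report. Leaving out each mouse in turn, between 0 and 176 genes were called between targets, the 176 without mouse B. Between mice it left 576 (without A) to 3555 (without B) genes and 3 to 8 members. Members called against the mean of the others ran from 2 to 4 in mouse B, 1 to 3 in mouse C (3 without A, 2 without B) and 0 to 5 in mouse D (0 without A). Of the members' differences between targets 14 of 135 changed sign, called in neither fit. With 4 animals, the members' 95% intervals between targets reached as far as -0.123 and 0.136. The labels give no batch, and the cause of each lost call was not tested.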
